A study of Arabidopsis thaliana with 6 samples.

Results

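The chloroplast genome of Arabidopsis thaliana encodes, beside the photosynthetic complexes, a set of genes for plastid gene expression and the plastid NDH complex. These genes were taken as the probe sets that name exactly 1 gene of the plastid chromosome whose symbol does not begin psa, psb, pet or atp and is not rbcL. Where a gene had several such probe sets the brightest was to be used, and a signal above 86 on at least 1 array was required. The rule gave 36 genes of 69 plastid genes with a probe set of their own, on an array with probe sets of their own for 13356 genes. They comprised 10 ndh genes, 4 rpo genes, 8 rps genes, 7 rpl genes and 7 genes of other function (accD, ccsA, cemA, clpP, matK, ycf3 and ycf4). Each had 1 probe set, and none was lost to the signal rule: the genes nearest to the limit were rps14 and ndhF, with highest signals of 112 and 118. A further 9 plastid genes of this kind in the gene table were not analysed here as members.

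Rosette leaves of flu plants, which carry the flu1-1 allele on a Landsberg erecta background, received a spray of paraquat or a mock spray and were harvested after 1, 2 or 4 h. Both sprays held Tween at 0.1%. All plants carried the mutation, were 3 weeks old and grew in continuous light, so no wild type enters any comparison. Each of the 6 combinations of treatment and hour was hybridised to 1 Affymetrix ATH1 array, with leaves of 5 to 6 plants per sample and RNA of 2 experiments pooled before labelling. The titles give the paraquat dose as 20 mM and the treatment protocol as 20 microM, and which is right is not known here. FLU restrains chlorophyll synthesis, and 0 probe sets named it alone, so the genotype was not checked. Paraquat draws electrons from the acceptor side of photosystem I and hands them to oxygen. In bulk leaf RNA, fewer plastid-rich cells and less plastid RNA per cell cannot be told apart.

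As background, the plastid-encoded RNA polymerase is a bacterial-type enzyme built from the products of rpoA, rpoB, rpoC1 and rpoC2, and it works with sigma factors encoded in the nucleus. A second, phage-type polymerase is encoded in the nucleus and is known to transcribe the rpoB cluster and accD. Plastid genes are mostly transcribed in clusters, and the long precursors are cut, spliced, edited and trimmed into mature messages by nuclear-encoded proteins. The NDH complex returns electrons from the stroma to plastoquinone around photosystem I. Most mature plastid messages lack a long poly(A) tail, and a tail marks plastid RNA for decay, while the Affymetrix target preparation named in the labels starts cDNA synthesis from oligo(dT). How that selection acts on each gene was not measured.

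The arrays were alike in brightness, with medians of 157.7 to 162.0. A floor was set at 86.2, the 40th percentile of all signals, and 59.1% to 60.8% of each array exceeded it. The leaf genes RCA (rubisco activase) and PRK (phosphoribulokinase) had signals of 10152 to 16284 on all arrays. Of the root markers only EXPA7 could be read, with signals of 6.9 to 95.9, and no flower, pollen or seed storage marker had a probe set of its own. The guard cell gene FMA lay between 249 and 320.

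Most of the plastid genes were among the brightest probe sets. The median of the mean signals was 2128 for ndh, 2029 for rpo, 3559 for rps, 4454 for rpl and 7183 for the 7 other genes, against 6273 for the 33 plastid photosynthesis genes. Within the arrays, rps4, which encodes a protein of the small ribosomal subunit, stood as high as percentile 99.9. The dimmest were ndhF, rps14 and rpoB, with mean signals of 75.9, 82.4 and 99.8, and ndhF went as low as percentile 29.3 of its array. Signals of different probe sets depend on the probes as well as on RNA, so this order is one of signals and not of transcript amounts. These 3 genes were not above 86 on every array, while the other 33 were.

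At 1 h, 32 of the 36 genes had a lower signal in paraquat than in mock leaves. The share of probe sets with a ratio below 0 was 51.1% among the 14214 above the floor on at least 1 of these arrays. Of the 36 genes, 20 were lower by at least 20%, counted on signal + 34 (11.1% of probe sets), 10 at least 1.5-fold lower (2.46%) and 5 at least 2-fold lower (0.324%), while 0 were at least 2-fold higher (0.457%). The 5 were rpoC2, ndhH, rpl14, rpl16 and rps2, and they made up 10.9% of the 46 probe sets that were at least 2-fold lower. All ratios are log2 of (signal + 34) in paraquat minus mock leaves of the same hour, and with 1 array on each side a single hour has no replicate check and no test. The median ratio of the 36 genes was -0.36, against -0.01 for all probe sets above the floor.

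**Figure D1:**
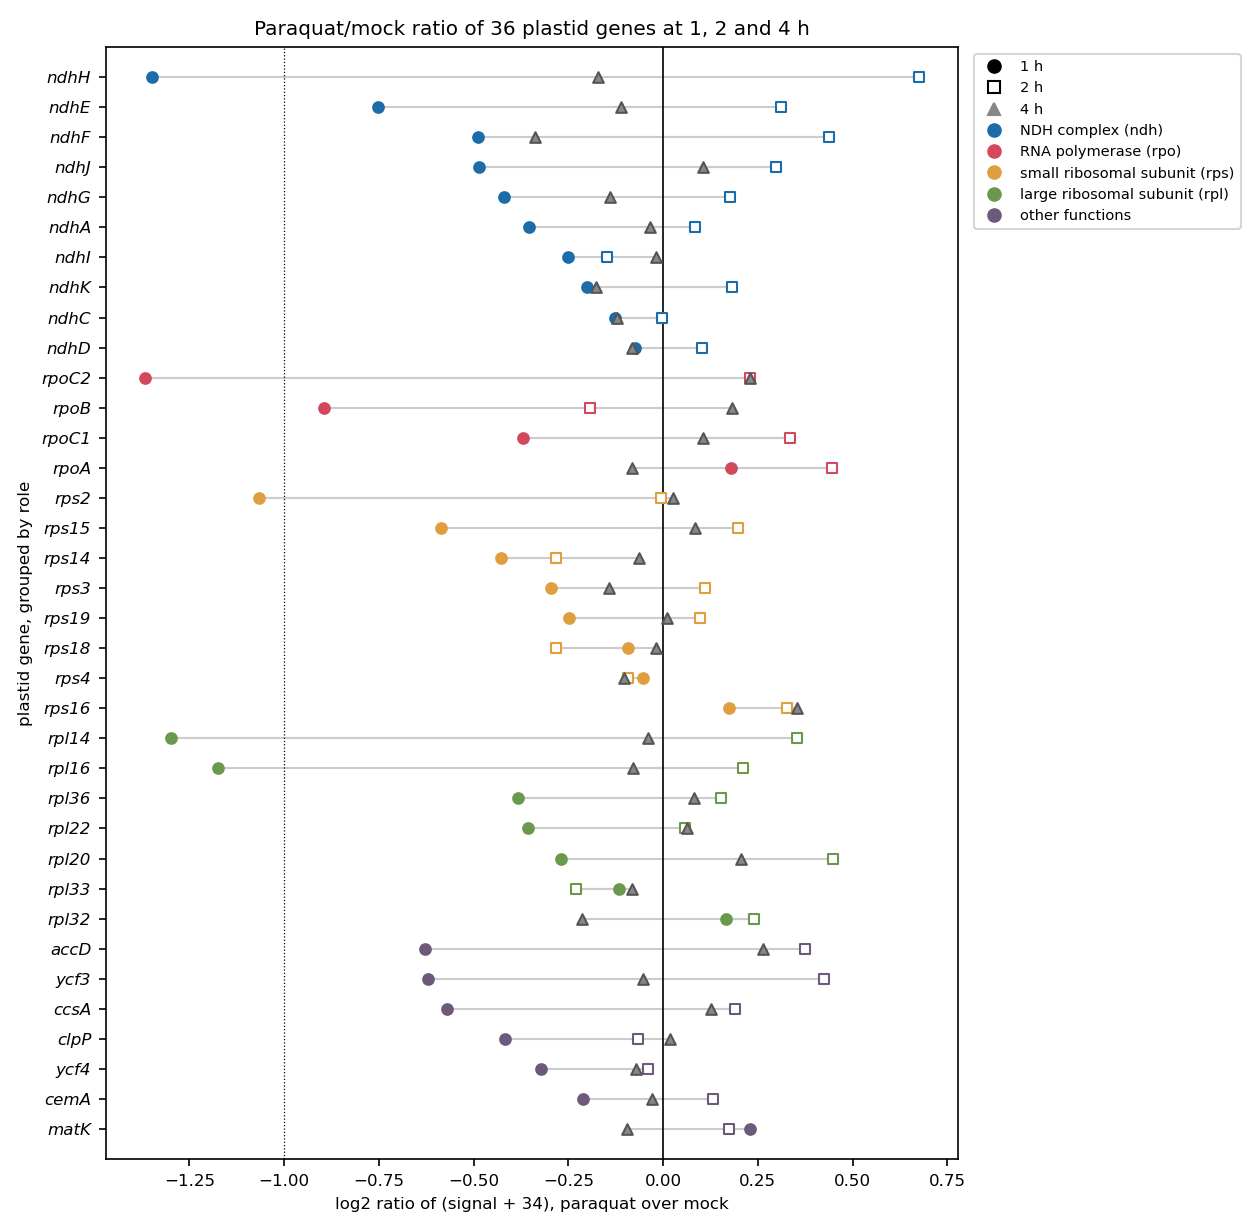
Log2 ratio of (signal + 34), paraquat over mock (horizontal axis), for each of the 36 plastid genes (vertical axis, grouped by role and sorted by the 1 h value); circles are 1 h, squares 2 h and triangles 4 h, 1 array per treatment and hour, and the dotted line marks a ratio of -1. At 1 h 32 genes lie left of 0 and 5 left of the dotted line, while at 4 h all 36 lie between -0.34 and 0.35.

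Among the RNA polymerase genes, rpoC2, which encodes the beta'' subunit, had signals of 1071, 2324 and 2144 at 1, 2 and 4 h in paraquat leaves, against 2818, 1977 and 1823 in mock leaves. Its paraquat signal was thus the lowest of the 6 at 1 h and above mock at both later hours (log2 ratios -1.37, 0.23 and 0.23). The gene of the beta subunit, rpoB, was dim, with 61.7, 83.9 and 113 in paraquat leaves, against 144, 101 and 95.6 in mock leaves. Its ratios were -0.89, -0.19 and 0.18, and they depend on the pseudocount because the signals are close to it. For rpoC1, the gene of the beta' subunit, signals were 1761, 2282 and 2108 in paraquat leaves, against 2286, 1802 and 1957 in mock leaves (ratios -0.37, 0.33 and 0.11). The alpha subunit gene rpoA, which lies in another cluster, had 4715, 4730.5 and 4243 in paraquat leaves, against 4163, 3465 and 4495 in mock leaves. It was the polymerase gene that was not lower at 1 h (ratios 0.18, 0.45 and -0.08).

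All 10 ndh genes were lower in paraquat leaves at 1 h, with ratios between -1.35 and -0.07 and a median of -0.39. The stromal-arm gene ndhH was at the low end. Its signals were 394, 1085 and 845 in paraquat leaves, against 1055, 666 and 957 in mock leaves, so it had both the lowest ratio of the ndh genes at 1 h and the highest ratio of the 36 genes at 2 h (0.68). At the other end stood ndhD, a membrane-arm gene, with 6332, 7195 and 6336 in paraquat leaves, against 6663, 6701 and 6713 in mock leaves. The 6 ndhD values overlapped between treatments, and its ratios were -0.07, 0.10 and -0.08. The brightest ndh gene, ndhI, which encodes an iron-sulfur subunit of the stromal arm, had 10870, 12056 and 11791 in paraquat leaves, against 12945, 13368 and 11937 in mock leaves. It was lower at all 3 hours (-0.25, -0.15 and -0.02).

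The other ndh genes filled the range between these. ndhE, a membrane-arm gene, had a 1 h ratio of -0.75, from 950 in paraquat and 1625 in mock leaves. The stromal-arm gene ndhJ had 2022, 2862 and 2454 in paraquat leaves, against 2846, 2323 and 2278 in mock leaves, and it was the 1 ndh gene with a ratio above 0 at 4 h (0.11). The membrane-arm gene ndhF had 60.1, 118 and 40.8 in paraquat leaves, against 98.1, 78.0 and 60.6 in mock leaves. Its 4 h ratio of -0.34 was the lowest of the 36 genes at that hour and rests on signals below the floor on both arrays. The remaining 4, ndhA, ndhC, ndhG and ndhK, had 1 h ratios between -0.42 and -0.13.

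Of the 8 small-subunit ribosomal protein genes, 7 were lower at 1 h, with a median ratio of -0.27. The lowest was rps2, with 2685, 5223 and 5236 in paraquat leaves, against 5659, 5242 and 5140.0 in mock leaves. The 5 signals of rps2 outside paraquat 1 h differed by little, and its ratios at 2 and 4 h were -0.01 and 0.03. The exception at 1 h was rps16, with 1029, 1028 and 899 in paraquat leaves, against 908, 813 and 696 in mock leaves. It was higher at all 3 hours (0.17, 0.33 and 0.35), and its signals overlapped between treatments. The brightest, rps4, had 14305, 14046 and 13133 in paraquat leaves, against 14853, 14987 and 14097 in mock leaves, with ratios of -0.05, -0.09 and -0.10. rps18 had 2627, 2158 and 2299 in paraquat leaves, against 2804, 2633 and 2330.0 in mock leaves, and the lowest ratio of the 36 genes at 2 h (-0.28). rps3 had 5558, 6475 and 5859 in paraquat leaves, against 6828, 5996 and 6470 in mock leaves. Both are small-subunit genes, and rps3 had the lowest rps ratio at 4 h (-0.14). The other 3, rps14, rps15 and rps19, had 1 h ratios of -0.43, -0.59 and -0.25.

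Of the 7 large-subunit genes, 6 were lower at 1 h, with a median ratio of -0.36. The neighbours rpl14 and rpl16 stood apart from the other 5. rpl14 had 1103, 2256 and 1988 in paraquat leaves, against 2760.5, 1758 and 2044 in mock leaves, and rpl16 had 2502, 5312 and 4640 in paraquat leaves, against 5690, 4588 and 4901 in mock leaves. At 1 h rpl14 was thus 2.46-fold and rpl16 2.26-fold lower in paraquat leaves. The exception was rpl32, with 4433, 4351 and 3657 in paraquat leaves, against 3945, 3682 and 4246 in mock leaves, whose ratios were 0.17, 0.24 and -0.21. The brightest large-subunit gene, rpl33, had 8840, 7665 and 8208 in paraquat leaves, against 9587, 8997 and 8693 in mock leaves (ratios -0.12, -0.23 and -0.08). rpl20 had 320, 438 and 352 in paraquat leaves, against 392, 312 and 301 in mock leaves, with the highest rpl ratios at 2 h (0.45) and 4 h (0.21).

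The 7 genes of other function had a median ratio of -0.42 at 1 h. accD, which encodes a subunit of the plastid acetyl-CoA carboxylase, had 1951, 3309 and 3009 in paraquat leaves, against 3034, 2546 and 2498 in mock leaves. Its ratio was the lowest of this group at 1 h (-0.63) and the highest at 4 h (0.26). ycf3, which encodes an assembly factor of photosystem I, had 360, 633 and 521 in paraquat leaves, against 572, 463 and 542 in mock leaves, and so the highest ratio of this group at 2 h (0.43). ccsA, needed to attach haem to c-type cytochromes, had a 1 h ratio of -0.57. clpP, the proteolytic subunit gene of the Clp protease, had 6886, 7887 and 7730 in paraquat leaves, against 9200.3, 8258 and 7629 in mock leaves, and so the lowest ratio of this group at 2 h (-0.07). The envelope protein gene cemA was the brightest of the group, with 9577, 10327 and 10126 in paraquat leaves, against 11093, 9425 and 10342 in mock leaves. Against the direction of the others, matK, which encodes an intron maturase, had 7917, 7807 and 6624 in paraquat leaves, against 6744, 6922 and 7084 in mock leaves. It had the highest ratio of all 36 genes at 1 h (0.23).

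**Figure D2:**
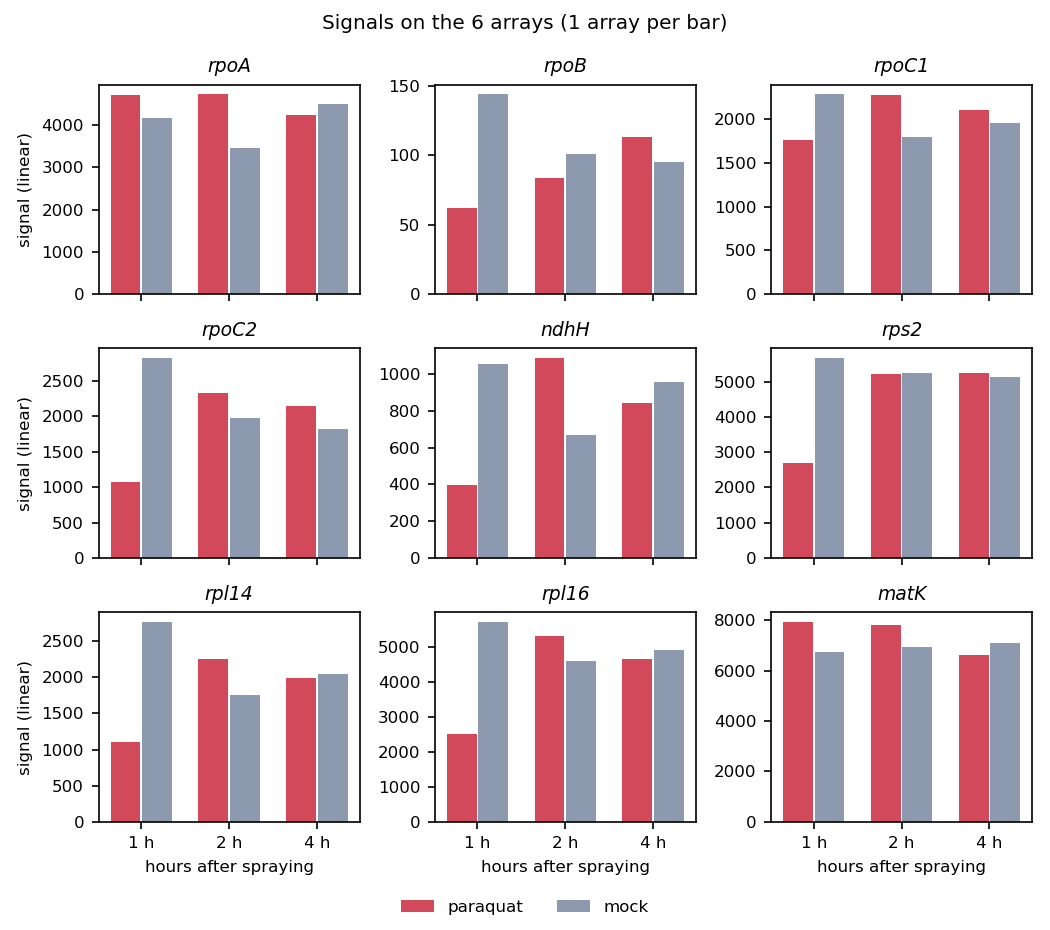
Signal on a linear scale (vertical axis) by hours after spraying (horizontal axis), 1 array per bar, with paraquat in red and mock in grey, for the 4 polymerase genes, 4 of the other genes that were at least 2-fold lower at 1 h, and matK. In rpoC2, ndhH, rps2, rpl14 and rpl16 the paraquat bar is under the mock bar at 1 h and passes it at 2 h, except in rps2, where they are nearly level, while rpoA and matK have their paraquat bar above mock at 1 and 2 h.

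At 2 h the direction was the other way for most genes. The ratio was above 0 for 26 of 36 genes (50.1% of 14217 probe sets), at least 25% higher for 9 (11.4%) and at least 1.5-fold higher for 1, ndhH (2.79%), with a median of 0.17. The group medians were 0.28 for rpo, 0.21 for rpl, 0.18 for ndh, 0.17 for the other genes and 0.05 for rps. None of the 36 was lower by 20% or more (9.09% of probe sets), the lowest being rps18 and rps14 at -0.28 each. At 4 h the ratios lay close to 0, with 22 of 36 below it (53.0% of 13914 probe sets) and a median of -0.04. Of the 36, only ndhF was lower by at least 20% (12.0%) and only rps16 higher by at least 25% (11.3%), shares below the background in both directions. The medians at 4 h were 0.14 for rpo, -0.01 for rps, -0.03 for the other genes, -0.04 for rpl and -0.12 for ndh.

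Over the 34 genes that entered the tests, 6 had a ratio below 0 at all 3 hours (16.5% of all 13837 tested probe sets) and 1, rps16, a ratio above 0 at all 3 (15.3%). All 3 paraquat signals lay below all 3 mock signals for 1 gene (4.06%), the photosystem I assembly factor gene ycf4, with 7151, 7794 and 7641 in paraquat leaves, against 8943, 8010.0 and 8033 in mock leaves. For 0 genes did all 3 lie above (3.32%). These shares are close to or below those over all probe sets.

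Signals also differed between the hours of 1 treatment. In mock leaves 30 of the 36 signals were lower at 2 h than at 1 h (47.4% of probe sets; median log2 change -0.18), and 17 of 36 were lower at 4 h than at 2 h (52.2%; median 0.00). In paraquat leaves 30 of 36 were higher at 2 h than at 1 h (54.5%; median 0.26), 4 of them at least 2-fold (1.06%), and 27 were lower at 4 h than at 2 h (54.4%; median -0.14). The paraquat 1 h array was the lowest of the 6 for 24 of 36 genes (15.9% of tested probe sets). The mock 1 h array was the highest for 16 (18.2%) and the paraquat 2 h array for 11 (14.0%). Set against the mean of the other 5 arrays, the median gene stood at -0.22 on the paraquat 1 h array, 0.16 on the paraquat 2 h array and 0.20 on the mock 1 h array. The other 3 arrays had medians between -0.04 and 0.01, and for all tested probe sets the 6 medians lay between -0.02 and 0.02.

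The low 1 h ratios therefore combined a low paraquat array and a high mock array. Against the mean of all 3 mock arrays, an alternative added after the data were seen, 31 of 36 genes were below 0 at 1 h (52.9% of probe sets), with a median of -0.22. At least 2-fold lower were 2 genes, ndhH and rpl16 (0.559% of probe sets), with rpoC2 and rps2 just short of that size (-0.99 and -0.98). With the paraquat 1 h array left out, the mean of paraquat 2 and 4 h against mock 1 h was below 0 for 26 genes (50.0%), with a median of -0.12 and none at least 2-fold lower.

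**Figure D3:**
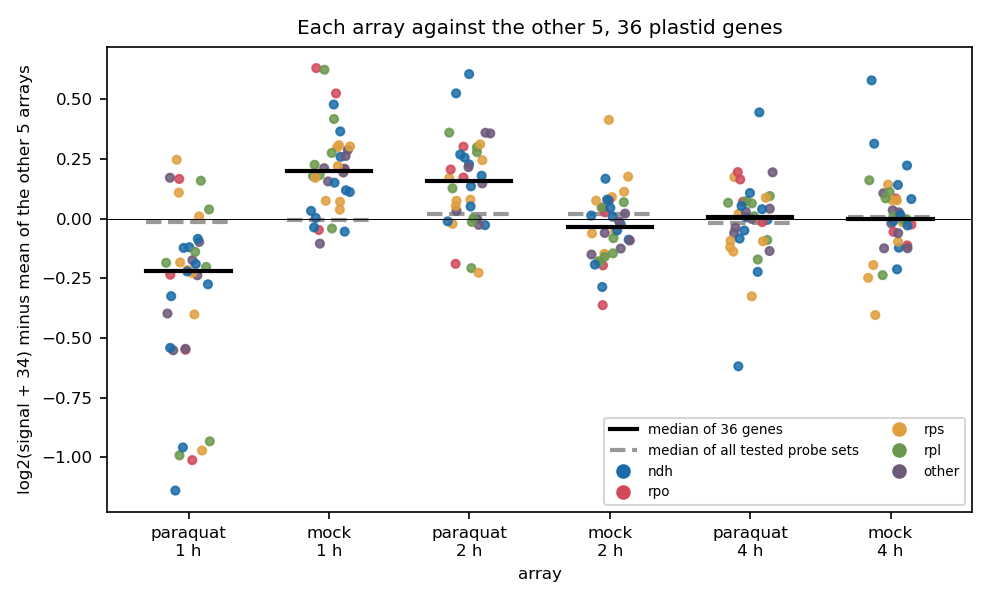
Log2(signal + 34) of each of the 36 genes on 1 array minus its mean on the other 5 (vertical axis), for the 6 arrays (horizontal axis, paraquat left of mock at each hour); points are genes coloured by role, black lines are medians of the 36 genes and dashed grey lines medians of all tested probe sets. The paraquat 1 h points spread down to below -1, with a median of -0.22, while the mock 1 h median is 0.20.

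Control probe sets also differed on both 1 h arrays. The control for 25S ribosomal RNA read 308 at paraquat 1 h, 111 at paraquat 2 h and 243 at paraquat 4 h, against 124, 131 and 92.8 on the mock arrays. A control for the 5' part of actin read 1329, 584 and 570 in paraquat leaves, against 527, 551 and 572 in mock leaves. The 3' actin signal divided by the 5' signal was 3.00, 6.76 and 6.66 in paraquat leaves, against 8.08, 9.16 and 7.65 in mock leaves. A second pair of actin controls gave 3'/5' ratios of 1.39 to 1.62 on all 6 arrays. Here the paraquat 1 h array was the highest, whereas it was the lowest for the first actin pair. It was also the highest for a GAPDH control pair, at 1.154 against 0.892 to 1.055 on the other 5 arrays. A second GAPDH pair was highest on the paraquat 4 h array. The control pairs thus did not shift in the same direction at paraquat 1 h. On the mock 1 h array the control for 5S ribosomal RNA stood apart. It read 58.9, 52.8 and 62.3 in paraquat leaves, against 127, 64.5 and 62.7 in mock leaves. The mock 1 h array also had the highest 3'/5' ratios of both ubiquitin control pairs, 1.55 and 1.32, against 1.24 to 1.397 and 1.04 to 1.195 on the other 5 arrays. Whether RNA quality or labelling of either array had a part in the 1 h ratios was not tested.

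The effect of paraquat averaged over the 3 hours was tested with limma, with harvest hour as a block and the hours standing in for replicates. None of the 34 tested genes passed, in either direction (0.253% of 13837 probe sets passed as higher and 0.0650% as lower). At an unadjusted p under 0.05 there was 1 gene (10.3% of probe sets), rps16, at 0.28 ± 0.10 (moderated SE, limma adjusted p = 0.35, higher at 3 of 3 hours). The count was also 0 in every alternative fit run, the one without the 1 h arrays included. Several of those fits called only 0 to 7 probe sets in all, so their count of 0 says little. ndhF and rps14 were too dim to enter. Among the genes with the lowest averages were rps2 at -0.35 ± 0.19 (limma adjusted p = 0.60) and rpl16 at -0.35 ± 0.22 (limma adjusted p = 0.65), where the SE holds the swing between hours.

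The change of the ratio with time was tested as a slope per doubling of the hour, which leaves 1 residual degree of freedom. The ratio of rpoC2 rose by 0.80 ± 0.16 log2 units per doubling (moderated SE, limma adjusted p = 0.040), and it was the 1 gene of 34 with a positive slope past the threshold (0.426% of probe sets), while 0 had a negative one (0.347%). At an unadjusted p under 0.05 there were 13 of 34 (12.2% of probe sets). The rpoC2 slope rests on 1 h, since its ratio was 0.23 at 2 h and 0.23 at 4 h, and with 1 array on each side an effect confined to that hour and an array that deviates cannot be told apart. It was called in 4 of 6 alternative fits and not without the filter on low signals (limma adjusted p = 0.50) or without the variance trend (limma adjusted p = 0.32). The fits that did not call it called 0 probe sets of any kind, and those that did called 144 to 359. rps2 had the next smallest adjusted p, with a slope of 0.55 ± 0.12 (limma adjusted p = 0.057). It passed in 4 of the 6 alternative fits (adjusted p from 0.0039 to 0.51). rpl14 (0.63 ± 0.19, limma adjusted p = 0.17), rpl16 (0.55 ± 0.16, limma adjusted p = 0.15) and accD (0.45 ± 0.13, limma adjusted p = 0.14) did not pass, and each passed in 3 of 6 alternatives.

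Genes known to be transcribed together often differed at 1 h. The ribosomal protein cluster runs from rps19 through rpl22, rps3, rpl16, rpl14 and rpl36 to rpoA. In that order the 1 h ratios were -0.25, -0.36, -0.30, -1.17, -1.30, -0.38 and 0.18, so the pair in the middle was more than 2-fold lower while the last gene was higher. In the NDH cluster of the small single-copy region, read as ndhH, ndhA, ndhI, ndhG, ndhE, psaC and ndhD, the ratios were -1.35, -0.35, -0.25, -0.42, -0.75, -0.44 and -0.07. The gene rps15, which neighbours ndhH, stood at -0.59. In the rpoB, rpoC1 and rpoC2 cluster they were -0.89, -0.37 and -1.37. Next to rpoC2 lies the ATP synthase cluster that opens with rps2, where rps2, atpI, atpH, atpF and atpA had ratios of -1.07, -0.85, -1.16, -0.71 and -0.20. From ndhC through ndhK to ndhJ they were -0.13, -0.20 and -0.49, and from accD through psaI, ycf4 and cemA to petA they were -0.63, -0.32, -0.32, -0.21 and -0.11. Through psaA, psaB and rps14 they were -1.59, -0.29 and -0.43. By contrast, the neighbours rpl33 and rps18 were alike at 1 h, at -0.12 and -0.09. The clusters were laid out from general knowledge and gene order with the ratios already known, and the spread within them was not tested.

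**Figure D4:**
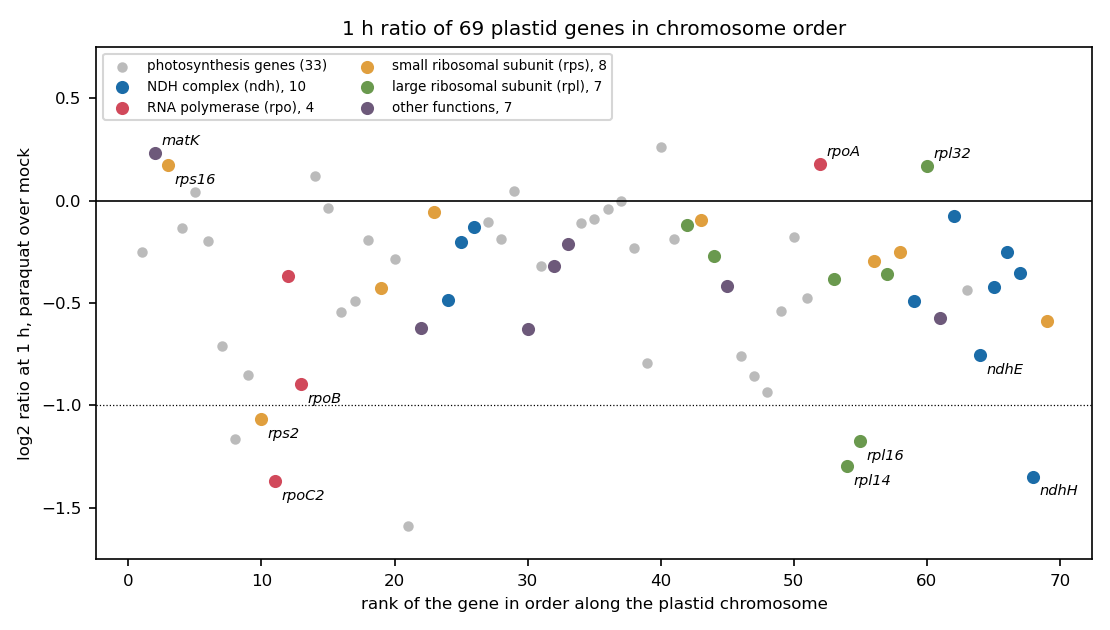
Log2 ratio of (signal + 34) at 1 h, paraquat over mock (vertical axis), by rank of the gene along the plastid chromosome (horizontal axis, 69 genes with a probe set of their own); coloured points are the 36 genes by role, grey points the 33 photosynthesis genes, and the dotted line marks a ratio of -1. Low ratios sit in neighbouring runs, from atpF to rpoC2, from psbB to psbH among the photosynthesis genes, and at rpl14 and rpl16. They also sit in single genes beside neighbours nearer to 0, such as ndhH and the photosynthesis gene psaA, the lowest of the 69 at -1.59.

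The size of the 1 h ratio also varied with the signal level. The 12 genes with a mean signal of 5000 or more had a median ratio of -0.23 and a range of -0.42 to 0.23. Of these, 11 were below 0, as were 60.7% of all 547 probe sets in that class. The 15 genes with a mean signal of 1000 to 5000 had a median of -0.49 and a range of -1.37 to 0.18, and the 9 dimmer genes a median of -0.49 and a range of -1.35 to 0.17. In the same 3 classes of signal, all probe sets had medians of -0.04, 0.01 and -0.00 from bright to dim. Across the 36 genes the 1 h ratio and the mean signal had a Spearman rho of 0.47 and, with log2 signal, a Pearson r of 0.29. These genes share arrays and clusters, and the relation is a description only. The highest signals of the arrays were 19430 to 20899, and how far the brightest plastid probe sets, such as rps4, were held near that limit was not tested.

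**Figure D5:**
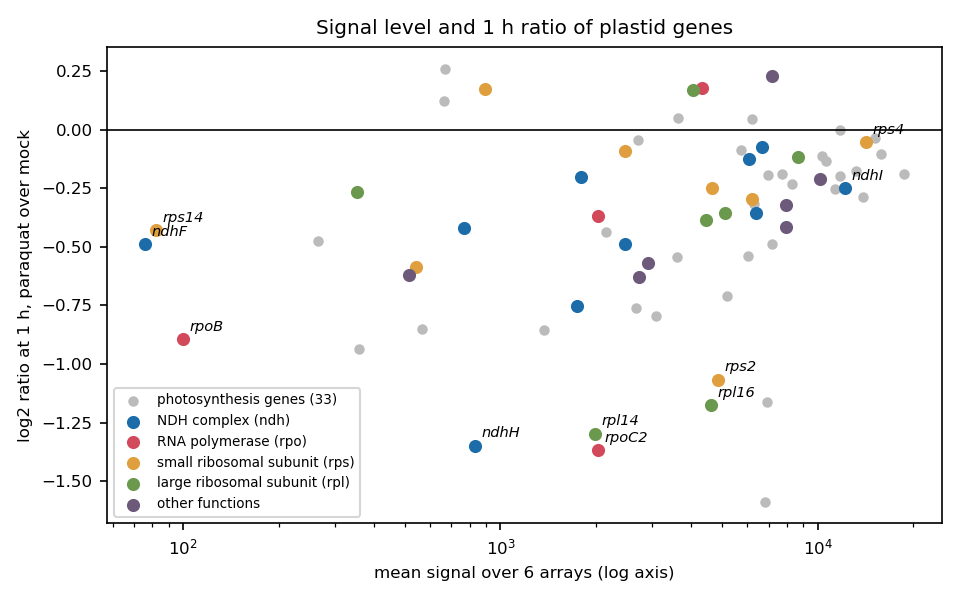
Log2 ratio of (signal + 34) at 1 h, paraquat over mock (vertical axis), against the mean signal over the 6 arrays (horizontal axis, logarithmic); coloured points are the 36 genes by role and grey points the 33 photosynthesis genes. The 12 coloured points at a signal of 5000 or more lie between -0.42 and 0.23, while those of 1000 to 5000 reach down to -1.37.

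The 33 plastid photosynthesis genes, chosen by the same rule of probe set and signal, had medians of -0.23, -0.00 and 0.03 at 1, 2 and 4 h, beside -0.36, 0.17 and -0.04 for the 36 genes. At 1 h, 29 of these 33 were below 0 (51.1% of probe sets) and 2 at least 2-fold lower (0.324%). Genes on the same arrays are not replicates, so the difference between these sets was not tested. At a like signal level the sets stood closer at 1 h: with mean signals of 1000 to 5000 the medians were -0.49 for 15 genes of the present set and -0.54 for 7 photosynthesis genes, and at 5000 or more -0.23 and -0.19. Probe sets of 7 further genes, each annotated with 2 gene numbers because they lie in the plastid inverted repeat, ran from -1.48 to 0.46 at 1 h with a median of -0.53. Their medians were -0.32 at 2 h and -0.03 at 4 h. With these genes added to the 36, the 2 h median was 0.11, and 14 of 43 genes were below 0 (49.9% of probe sets). Of 8 genes of the mitochondrial genome, 1 was below 0 at 1 h (51.1% of probe sets). Their medians were 0.07, 0.12 and -0.23 at 1, 2 and 4 h. These were matched by symbol, since their gene numbers were not in the gene table, and they were dim, with mean signals of 77.6 to 403.

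Nuclear genes for the same plastid functions were covered in part. Of 140 genes in 7 lists, 19 had a probe set naming them alone, and the lists of sigma factors, polymerase-associated proteins, nuclear plastid ribosomal proteins and acetyl-CoA carboxylase subunits had 0. All 6 measured nuclear genes of NDH subunits and assembly factors were tested, and 0 passed either limma test. Of these 6 genes, 5 had a 1 h ratio below 0 (51.1% of probe sets), and the median of that hour was -0.12. The 2 h ratios had a median of -0.03, with 3 of 6 below 0 (49.9%). By 4 h, 0 of 6 lay below 0 (53.0%), and the median had reached 0.24. NdhS, a subunit at the ferredoxin-binding site, had the highest average at 0.30 ± 0.08 (limma adjusted p = 0.26, higher at 3 of 3 hours). Its signals were 1766, 2065 and 2799 in paraquat leaves, against 1411, 1693 and 2268 in mock leaves, overlapping between treatments because both series increase with the hour. The others named by rule were the subunit gene NdhN at 0.09 ± 0.10 (limma adjusted p = 0.81), PIFI, known from the NDH-dependent fluorescence rise, at -0.08 ± 0.07 (limma adjusted p = 0.76), and the assembly factor gene CRR41 at -0.24 ± 0.15 (limma adjusted p = 0.65). CRR41 signals were 222, 196 and 304 in paraquat leaves, against 312, 278 and 268 in mock leaves.

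Of 12 plastid RNA processing and decay factors with a probe set, 9 were above a signal of 86 on an array and 7 were tested, with 0 passing either limma test. The median ratios of the 9, with the untested dim genes CRR22 and CRR28 included, were -0.12, 0.08 and -0.09 at 1, 2 and 4 h. The lowest averages belonged to the editing factor gene OTP84 (-0.28 ± 0.13, limma adjusted p = 0.51) and the splicing factor gene CAF1 (-0.20 ± 0.16, limma adjusted p = 0.75). The highest were CFM3A, a splicing factor gene, and LPA66, an editing factor gene, at -0.04 ± 0.17 (limma adjusted p = 0.97) and -0.05 ± 0.13 (limma adjusted p = 0.94). CLPP4, a nuclear-encoded partner of clpP in the Clp protease, stood at 0.08 ± 0.07 (limma adjusted p = 0.77), with signals of 4293, 4497 and 4574 in paraquat leaves, against 3936, 4332 and 4353 in mock leaves.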

How the data were processed

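The authors deposited 1 signal intensity per probe set and array on a linear scale, and MAS5 is the program listed, per the submitters' processing notes (version not given in the sources used here). The deposited intensities of each array have the same mean of 500.04 after trimming 2% at each end, so a change in total RNA per leaf is not visible. Depth does not apply to arrays, and their number, 1 per group, limits the precision. Groups came from the sample titles.

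The 64 control probe sets were left out. Values were log2(signal + 34), where 34 is near the 25th percentile of signals, and this scale understates changes of dim genes. The 13837 probe sets that exceeded 86.2 on 3 or more of the 6 arrays were fitted with limma 3.58.1 in R 4.3.3 (lmFit, eBayes with a variance trend, hour as a block, 2 residual degrees of freedom; a further treatment by log2 hour term left 1). P-values were two-sided and adjusted by Benjamini-Hochberg over all fitted probe sets, with a threshold of 0.05, and the scripts were tested on simulated data. Values after ± are moderated SEs. Single hours had no test, and background shares there cover probe sets that exceeded 86.2 on either array of the pair.

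Of the 22746 probe sets, 13513 named 1 gene, 503 several and 8730 none, and 13436 of the 13513 matched the TAIR10.1 gene table, which gave names, chromosome and gene order. No build is named for the array data, so no coordinates are given, and no sequences were available to print. The genes described, their groups and the nuclear lists were chosen with earlier results of these data known. Named with signals on every array, by rule, were all rpo genes and, in every other group, the brightest gene and those with the highest and lowest ratio at each hour. Other genes were added by name. In nuclear lists the rule took the 2 highest and 2 lowest averages. Alternatives were other scalings, pseudocounts, filters, models, probe set choices and leaving out an hour.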

Additional observations from a re-analysis of the deposited data

Results flagged for a closer look

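The paraquat/mock log2 ratio of rpoC2 differed between hours, by the limma test of its change with time, with a slope of 0.80 per doubling of the hour. It was -1.37 in the first hour's pair of arrays and 0.23 in both later pairs, so the slope rests on the first pair.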

How the results depend on the processing

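The averaged test pairs paraquat with mock of the same hour through the hour block. Without that block it called 0 of all probe sets, the plastid genes included. The labels give no replicate numbers to pair by. The count of 0 genes in the averaged test held in every alternative fit run, including those that left out 1 h, 2 h or 4 h (0 to 0). Over all probe sets that test called 44 as deposited, 57 without 2 h and 71 without 4 h. With other scalings and pseudocounts it called 31 to 43. It called 7 without 1 h, 1 without the variance trend, and 0 without the filter or the block. Where so few passed anywhere, a count of 0 plastid genes says little. The slope test called 1 gene as deposited, 5 after quantile normalization, 5 with arrays centred on the 75th percentile, 5 with a pseudocount 4 times larger, 2 with one 4 times smaller, and 0 both without the filter on low signals and without the variance trend (6 genes each had an unadjusted p under 0.05). Over all probe sets, in either direction, these fits called 107, 296, 359, 311 and 144 in that order, and 0 in each of the last 2. The member counts thus moved with the counts over the whole array. The cause was not tested. Genes below 0 at 2 h numbered 10 as deposited and 6 after quantile normalization. Against the mean of the 3 mock arrays the 1 h median was -0.22 with 2 genes at least 2-fold lower, and with paraquat 2 and 4 h against mock 1 h it was -0.12 with 0. The rps median at 4 h, -0.01, became 0.00019 when centred on the 75th percentile and 0.0093 for genes above 86 on all 6 arrays. Other medians kept their sign.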
